A study of Rattus norvegicus with 18 samples.

Results

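The genes described here are 43 interferon-induced genes of the rat dorsal hippocampus, chosen by symbol from a list of chemokines, nucleic acid sensors, antiviral effectors, transcription factors and antigen processing genes. All 43 had counts in the deposited tables, which hold 38445 genes, and 41 of them were among the 17853 genes tested. The list was drawn up with earlier results of these data in view, so the counts over its members describe them and are not independent evidence of a direction. RNA from the dorsal hippocampus of 18 male Sprague-Dawley rats was sequenced as paired-end reads, to find genes whose expression changes during chronic ethanol intake and during withdrawal from it. The 6 control rats were kept on control liquid diet for 16 days. The 6 ethanol rats were introduced to ethanol liquid diet over 7 days, stayed on 9% (v/v) ethanol for 16 days, and were taken without withdrawal (0 h). The 6 withdrawal rats had the same introduction, 15 days on 9% ethanol, and then 24 h without ethanol. The rats were 75 to 85 days old when bought, and each library came from the dorsal hippocampus of a single rat. The counts on genes added up to 30873228 to 42679748 read pairs per rat (median 36302755).

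Interferons are secreted proteins that cells release when they sense foreign or misplaced nucleic acids. They bind receptors that act through JAK kinases on transcription factors, and a complex that contains IRF9 binds a promoter element called the interferon-stimulated response element (ISRE). Another element, the gamma-activated site (GAS), is found in promoters that respond to interferon gamma. In the brain, interferon-induced genes are expressed at a low level in the healthy state and can be induced in microglia, astrocytes, neurons and vascular cells.

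The promoters of the list were searched for both elements, since both are known elements of interferon-responsive promoters. The ISRE was searched as GAAANNGAAA and the GAS as TTCNNNGAA, on both strands, in the 250 bases before the start of each gene in the RefSeq annotation of GRCr8. That build differs from the Rnor_6.0 build of the counts and was used for these sequences only. A promoter was at hand for 34 of the 43 genes. The ISRE letters stood in 23 of these 34 (67.6%) and in 3.41% of all 33469 promoters. The GAS letters stood in 9 (26.5%) and in 7.67% of all promoters. At least 1 of the elements was present in 27 genes and both in 5. The stretches below belong to genes that passed a test described further on, and to Psmb10, which passed none. Capitals mark the ISRE and GAS letters and lower case the bases around them, all written 5′ to 3′ on the strand of the gene.
Ddx60 (chr16:33208849-33208932, minus strand): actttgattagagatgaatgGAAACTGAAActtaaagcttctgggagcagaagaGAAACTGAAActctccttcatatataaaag
Ifit3 (chr1:241527262-241527311, plus strand): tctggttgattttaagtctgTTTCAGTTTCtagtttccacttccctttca
Irf7 (chr1:205800063-205800112, minus strand): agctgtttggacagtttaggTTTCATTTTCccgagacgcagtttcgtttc
B2m (chr3:129549160-129549209, plus strand): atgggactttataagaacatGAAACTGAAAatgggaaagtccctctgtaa
Ifitm3 (chr1:205541763-205541822, minus strand): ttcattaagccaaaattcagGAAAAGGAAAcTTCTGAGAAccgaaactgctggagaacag
Parp14 (chr11:78408027-78408087, plus strand): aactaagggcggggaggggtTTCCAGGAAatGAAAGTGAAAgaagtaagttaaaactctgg
Bst2 (chr16:18255063-18255124, minus strand): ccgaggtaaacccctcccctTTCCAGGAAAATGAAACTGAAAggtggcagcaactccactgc
Irf1 (chr10:38417773-38417821, plus strand): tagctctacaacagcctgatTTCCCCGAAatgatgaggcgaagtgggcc
Irf9 (chr15:33065717-33065765, plus strand): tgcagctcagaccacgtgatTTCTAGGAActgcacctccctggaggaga
Psmb10 (chr19:50743293-50743385, minus strand): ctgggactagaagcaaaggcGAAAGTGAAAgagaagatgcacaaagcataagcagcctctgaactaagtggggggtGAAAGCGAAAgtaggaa
Ddx60 and Psmb10 each carried a pair of ISRE matches. In Bst2 the GAS match ran into overlapping ISRE matches, whereas in Ifitm3 and Parp14 both elements lay side by side. Irf1 and Irf9 had a GAS match without an ISRE match. The positions nearest to the start site in these genes were 39 bases upstream in Ddx60, 44 in Ifit3, 33 in Ifitm3 and 17 in Psmb10, and B2m had its match 150 bases upstream. A match is a run of letters and not a measured binding site.

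Several rats stood apart in marker genes of nearby tissue, and the libraries differed in their index set. Withdrawal rats 4 and 5 had summed levels of 6 choroid plexus markers (Ttr and others) of 29.1 and 31.7 CPM, while the other 16 rats had 1084 to 5341 CPM. CPM is the count of a gene relative to the library total, scaled here by the TMM method. Withdrawal rat 5 also had the highest sum of 5 meningeal and mural markers, 458.9 CPM against 98.2 to 185.9 CPM in the other rats. Col1a1 was high in this rat, and the sum does not show that the other markers of the set were. The same rat had the lowest sum of 5 hippocampal neuron markers, 1126 CPM. All 5 neuron markers were tested and none differed between groups at q < 0.1. Their estimates were all negative for withdrawal against control (lowest limma-voom q = 0.102), and a test of groups does not address rat 5 alone. All control libraries carried index set 1, all ethanol libraries and withdrawal rats 1 and 2 carried set 2, and withdrawal rats 3 to 6 carried set 3, so treatment and index set cannot be told apart in comparisons with the control rats. Microglial markers, a set of 9 genes, summed to 293.7 to 359.6 CPM in control, 301.4 to 340.8 CPM in ethanol and 276.9 to 351.1 CPM in withdrawal rats, and none passed the test in any comparison. Of 8 T and NK cell markers, Cd3d, Cd3g, Cd8a, Gzmb and Nkg7 stayed under the level needed for testing. The other 3 (Cd3e, Cd4 and Ptprc) had negative estimates against control, and Cd4 fell in withdrawal, with -0.47 ± 0.13 (SE, limma-voom q = 0.0702). In control rats Cd4 was at 7.37 to 11.2 CPM (median 9.69) and Cd3e at 7.30 to 11.6 CPM (median 9.70), while the mean of Cd3d, Cd3g and Cd8a there was 0.0572, 0.0562 and 0.116 CPM. Cd3e was at 0.269 CPM in withdrawal rat 5, against a withdrawal median of 10.8 CPM. Which cells held the Cd4 and Cd3e RNA was not tested. In bulk tissue, fewer cells of a type and less RNA per cell cannot be told apart.

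Levels of the interferon-induced genes in control hippocampus spanned a wide range. Scaled by exon length, B2m, the light chain of MHC class I, was the most abundant at 153 CPM per kb. It was followed by Adar (an RNA-editing enzyme) at 21.5 and by the immunoproteasome subunit Psmb10 at 13.1 CPM per kb. The lowest of the genes tested was Zbp1, a sensor of Z-form nucleic acids, at 0.0987 CPM per kb. The median over the 41 genes was 1.77 CPM per kb, against 5.78 CPM per kb over all genes tested. In 31 of the 41, every rat was above 0.5 CPM. Cxcl11 and Zbp1 entered the test through withdrawal rats alone, since no control or ethanol rat reached 0.5 CPM, so a positive difference in withdrawal was favoured for both by the filter.

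As a group, the interferon-induced genes were highest in withdrawal, and the rats of each treatment differed widely. The mean log2 CPM over the 41 genes was 1.68 to 2.30 in control rats (median 2.06), 1.51 to 2.32 in ethanol rats (median 1.83) and 2.21 to 2.87 in withdrawal rats (median 2.42). The withdrawal mean was 2.52 ± 0.29 (SD, n = 6), 0.44 above the control mean of 2.07 ± 0.22 and 0.62 above the ethanol mean of 1.89 ± 0.34. The pooled SD within groups was 0.29. Withdrawal rats 4 and 5 were the highest at 2.87 each, and the lowest withdrawal rats lay within the range of the control and ethanol rats. Among ethanol rats, numbers 1 and 6 (2.32 and 2.27) lay near the highest controls, and the other 4 lay between 1.51 and 1.90. Without withdrawal rats 4 and 5, withdrawal stood 0.26 above control and 0.45 above ethanol. Withdrawal rats 1 and 2, which share the index set of the ethanol rats, averaged 2.33, which is 0.44 above the ethanol mean, and withdrawal rats 3 to 6 averaged 2.61.

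**Figure D1:**
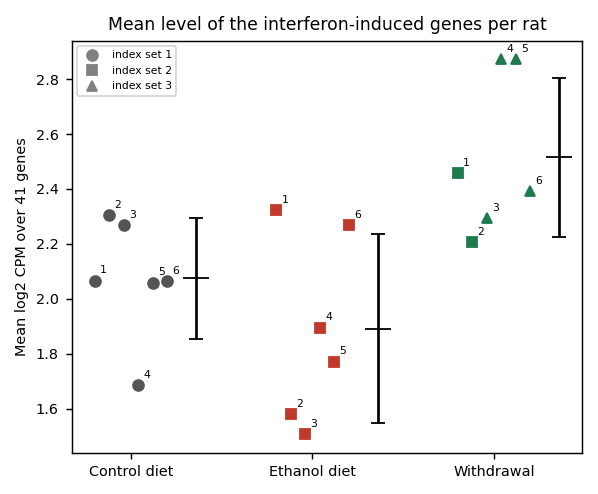
Mean log2 CPM over the 41 interferon-induced genes tested (y axis) in each rat, by diet group (x axis), with the rat number beside each point, the index set as its shape and the group mean ± SD as a bar. Withdrawal rats 4 and 5 share the highest value of 2.87, and the ethanol rats spread from 1.51 to 2.32.

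The rat-to-rat pattern was shared by many of the genes. Of the 41, 13 had their highest level in withdrawal rat 4 and 10 in withdrawal rat 5, where 5.98% and 14.5% of all genes tested had theirs. Withdrawal rats 1 and 6 held the highest level of 5 genes each, where 11.5% and 5.5% of all genes had theirs. In withdrawal rat 4, 33 of the 41 genes exceeded every control rat, as did 32 in rat 5, against 21.7% and 28.7% of all genes. The numbers in the other withdrawal rats were 18 in rat 1, 16 in rat 6, 15 in rat 3 and 7 in rat 2, against 27.6%, 22.2%, 17.9% and 13.8% of all genes. The lowest level fell in ethanol rat 2 for 12 genes, ethanol rat 3 for 11, ethanol rat 5 for 7 and control rat 4 for 5, where 3.64%, 3.94%, 7.72% and 5.11% of all genes had theirs. In ethanol rats 2 and 3, 20 and 22 of the genes lay below every control rat, against 17.0% and 17.7% of all genes. In ethanol rats 1 and 6, 16 and 11 lay above every control rat, against 29.2% and 21.4% of all genes. Below every control rat there were 3 and 2, against 27.3% and 18.5%. The median SD of log2 CPM was 0.264 in control, 0.414 in ethanol and 0.409 in withdrawal rats for the 41 genes, and 0.132, 0.178 and 0.195 for all genes tested. The 41 genes had lower levels (median 1.77 against 5.78 CPM per kb), and the spread was not compared at matched levels.

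**Figure D2:**
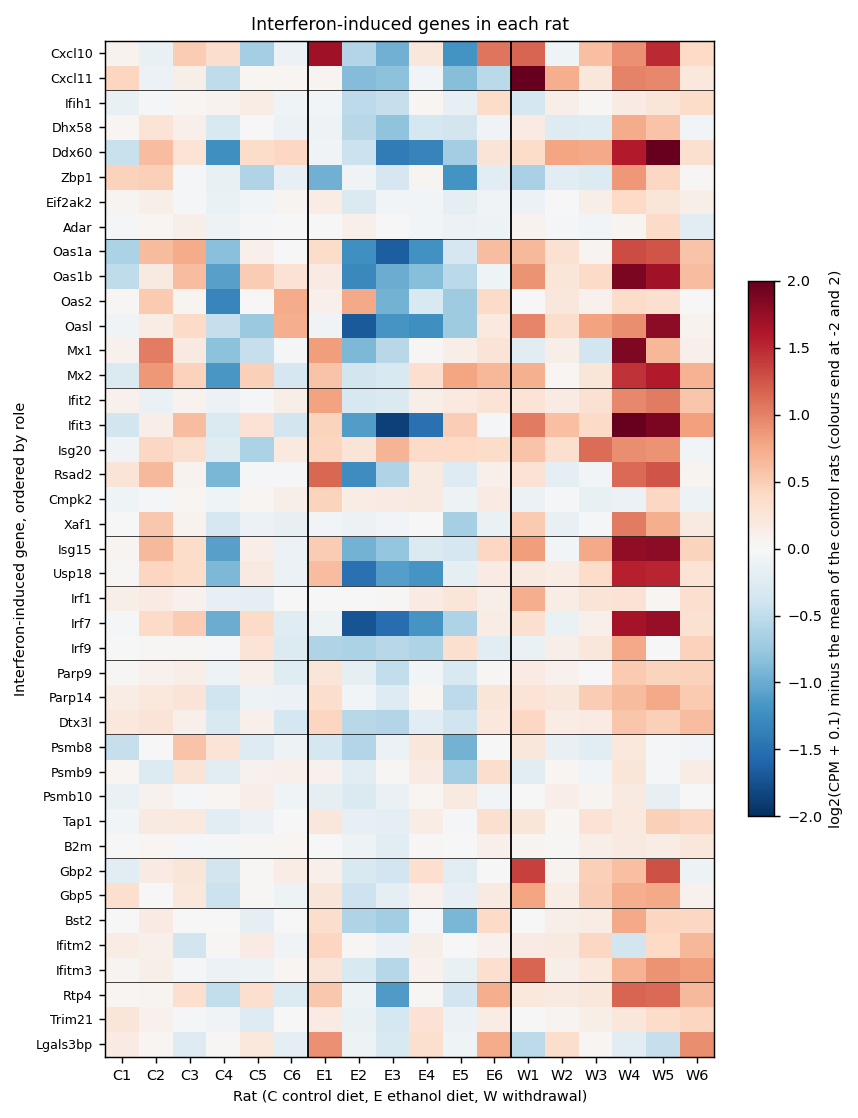
Log2(CPM + 0.1) of each of the 41 genes (one line per gene, ordered by role) in each of the 18 rats (columns), as the difference from the mean of the control rats, with red higher and blue lower. Withdrawal rats 4 and 5 (W4, W5) are red for most genes, in 33 and 32 of which they exceeded every control rat, and ethanol rats 2 and 3 (E2, E3) are blue for many.

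Between withdrawal and continued ethanol diet, 14 of the 41 genes rose and none fell at q < 0.1. They were Cxcl11, Ddx60, Oas1b, Oasl, Ifit2, Ifit3, Irf7, Irf9, Parp9, Parp14, Dtx3l, B2m, Bst2 and Ifitm3. These are 34.1% of the genes, while 1.24% of all genes rose and 1.51% fell (2.75% together). The estimate was positive for 39 genes, against 50.0% of all genes, and the median log2 fold change was 0.48, against 6.29e-05 over all genes. At an unadjusted p under 0.05 there were 29 of the 41 (70.7%), against 16.8% of all genes. The rats of both groups did not overlap for 3 genes (Cxcl11, Ddx60 and Oas1b), as for 0.605% of all genes in that direction. Cxcl11 is in both counts although the filter favoured it. With a filter of 0.5 CPM in at least 6 rats, where it was not tested, 14 of 39 genes passed, 13 of them among the 14. The count depended on single rats: it was 0 without ethanol rat 2, without ethanol rat 3 or without withdrawal rat 6, where 0 of all genes passed too, 9 without withdrawal rat 3 (375 of all genes) and 22 without withdrawal rat 2 (990 of all genes), where 491 of all genes were called as reported. With withdrawal rats 1 and 2 alone, which share the index set of the ethanol rats, or with the ethanol and withdrawal rats alone in the model, 0 of the 41 and 0 of all genes passed. Without withdrawal rats 4 and 5 together, 3 genes passed, which were Cxcl11 (log2 fold change 2.06, limma-voom q = 0.0954), Irf9 (0.41, q = 0.0727) and Ifitm3 (0.55, q = 0.0954). The estimates of the other genes stayed positive there, from 0.15 for B2m to 1.68 for Oasl, and lay at 0.89 for Ifit3 and Irf7. The median over the list was positive in each of the 16 alternatives other than leaving out single rats (0.35 to 0.52).

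Between withdrawal and control diet, 4 of the 41 genes rose and none fell, namely Ifit2, Ifitm3, Parp14 and Irf1. These are 9.76% of the genes, where 3.14% of all genes rose and 2.36% fell (5.51% together). Estimates were positive for 37 genes, against 51.3% of all genes, with a median of 0.31 against 0.0038 over all genes. At an unadjusted p under 0.05 there were 22 of the 41 (53.7%), against 19.8% of all genes. Ifit2 and Ifitm3 were higher in every withdrawal rat than in every control rat, a separation seen for 0.605% of all genes. Without surrogate variables limma-voom called 0 of the 41 (40 of all genes) and the edgeR quasi-likelihood test 0 (39), while DESeq2 called 6 (452 of all genes), of which 3 were among the 4. In limma-voom, without withdrawal rats 4 and 5 the count was 0, when 7 of all genes passed. The estimates without these rats were 0.17 for Ifit2, 0.25 for Ifitm3, 0.44 for Parp14 and 0.22 for Irf1. Single rats moved it as well: it was 0 without withdrawal rat 6 (21 of all genes), 16 without withdrawal rat 2 (1931 of all genes), 2 without control rat 3 (493), and 1 without control rat 4, 5 or 6 (471 to 568). The number of all genes called as reported was 983.

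Between ethanol and control diet, limma-voom called 0 of the 41 genes, and 0.65% of all genes. With surrogate variables in the model, the estimate was negative for 37 of the 41 with a median of -0.21, and 51.5% of all genes had a positive one. Some of these 37 genes had a higher unadjusted mean in the ethanol group, among them Cxcl10, Ifit2, Tap1 and Lgals3bp. Without surrogate variables, 9 of the 41 estimates were positive in limma-voom (median -0.08). In edgeR's quasi-likelihood test and in DESeq2 without them, 12 were positive (medians -0.07 and -0.08). In the fit with surrogate variables, 7 genes (17.1%) had an unadjusted p under 0.05, against 12.4% of all genes. The lowest q was 0.219, for Irf9. DESeq2 and the fit with sample quality weights each called 1 gene lower (468 and 451 of all genes), the edgeR quasi-likelihood test called 0 (131), and leaving out ethanol rat 5 gave 1 lower (261). The ethanol rats enter this comparison and the one with withdrawal, and the control rats enter both comparisons with control diet, so the 3 sets of values are not independent of each other.

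Markers of other cell types moved between the groups as well. Of 8 endothelial markers, 6 had positive estimates for withdrawal against control, and the lowest was -0.17. Pecam1, Flt1, Kdr and Esam rose there, with Pecam1 at 0.34 ± 0.07 (SE, limma-voom q = 0.0230), and none passed between withdrawal and ethanol. The summed endothelial level was 270.8 to 341.3 CPM in control, 295.6 to 347.0 CPM in ethanol and 292.0 to 382.7 CPM in withdrawal rats. Of 5 astrocyte markers, Gfap rose in withdrawal with 0.74 ± 0.17 (SE, limma-voom q = 0.0578) against ethanol and 0.54 ± 0.16 (SE, limma-voom q = 0.0769) against control, and Aldh1l1 and Gja1 fell against control. Of 5 meningeal and mural markers, 2 had positive estimates for withdrawal against control, and the median over the 5 was -0.21. Pdgfrb rose in withdrawal against control with 0.25 ± 0.07 (SE, limma-voom q = 0.0702), and Cd4 fell, as given above. Of 3 erythroid markers all fell against control in both ethanol and withdrawal. Their part in the results on the interferon-induced genes was not tested.

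**Figure D3:**
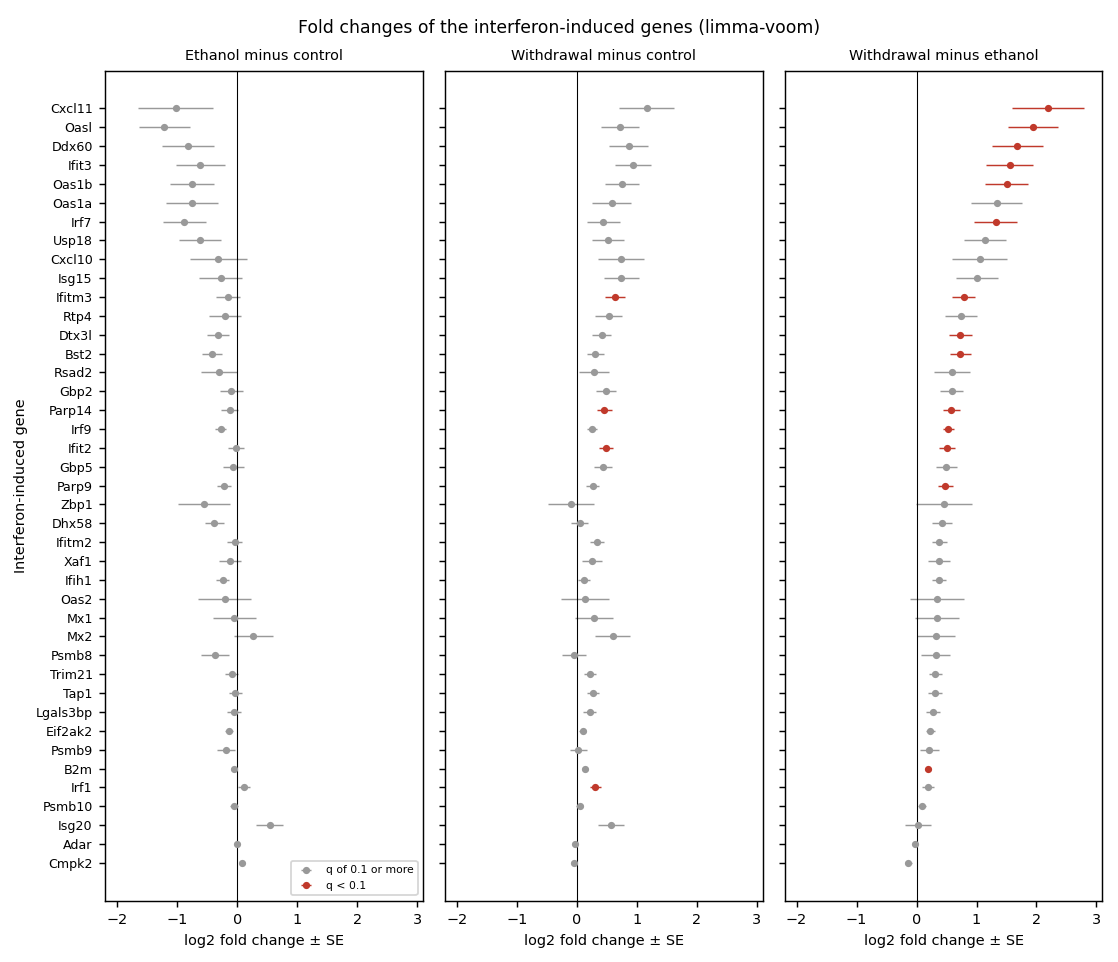
Log2 fold change ± SE from limma-voom (x axis) of the 41 genes (y axis, ordered by the difference between withdrawal and ethanol) in the 3 comparisons, with genes at q < 0.1 in red. Estimates are adjusted for surrogate variables. They lie mostly left of zero for ethanol minus control, with a median of -0.21. They lie mostly right of it for withdrawal minus control (median 0.31) and withdrawal minus ethanol (median 0.48).

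The chemokines of the list attract T cells through the receptor CXCR3, and both that were tested had low levels. Cxcl11 (chr14:17195395-17198170, Rnor_6.0) was at 0.0639 to 0.212 CPM (median 0.138) in control, 0.0270 to 0.142 CPM (median 0.0451) in ethanol and 0.170 to 1.36 CPM (median 0.316) in withdrawal rats. All 6 withdrawal rats were above all 6 ethanol rats, withdrawal rat 1 was far above the other 5, and the lowest withdrawal rats overlapped the control rats. Against ethanol the log2 fold change was 2.19 ± 0.60 (SE, limma-voom q = 0.0882), and it was 1.16 ± 0.46 (SE, limma-voom q = 0.171) against control. Cxcl11 was tested because withdrawal rat 1 alone exceeded 0.5 CPM, and its call against ethanol was lost in 10 of the 17 fits that left out another single rat, with estimates of 1.75 to 2.99 over all alternatives. Cxcl10 was the more abundant of the pair per length and was at 0.247 to 0.684 CPM (median 0.449) in control, 0.142 to 1.70 CPM (median 0.407) in ethanol and 0.424 to 1.45 CPM (median 0.844) in withdrawal. Its highest rat was ethanol rat 1, and all groups overlapped. The estimate against ethanol was 1.05 ± 0.46 (SE, limma-voom q = 0.257). Cxcl9 had 49 counts in all rats together and was not tested.

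The sensors detect viral or misplaced nucleic acids, and Ddx60, a helicase that assists the RNA sensor RIG-I, was the single member of the 6 that rose in withdrawal compared with ethanol. Ddx60 (chr16:29816144-29936220) was at 0.224 to 1.06 CPM (median 0.845) in control, 0.185 to 0.801 CPM (median 0.414) in ethanol and 0.848 to 3.12 CPM (median 1.19) in withdrawal rats. Every withdrawal rat was above every ethanol rat, rats 4 and 5 highest, while the withdrawal and control ranges overlapped. The log2 fold change was 1.68 ± 0.42 (SE, limma-voom q = 0.0653) against ethanol and 0.86 ± 0.33 (SE, limma-voom q = 0.163) against control. Adar, the RNA-editing enzyme, was grouped with the sensors and was the most abundant of the 6 per length. It had 187 to 217 CPM (median 199.7) in control, 184 to 215 CPM (median 197) in ethanol and 171 to 261 CPM (median 203) in withdrawal rats. Its ranges overlapped throughout and its estimate against control was -0.03 ± 0.03 (SE, limma-voom q = 0.634). The RNA sensor Ifih1 (MDA5), the RIG-I-like regulator Dhx58, the RNA-dependent kinase Eif2ak2 and Zbp1 had log2 fold changes of 0.37 (q = 0.121), 0.43 (q = 0.210), 0.23 (q = 0.112) and 0.46 (q = 0.657) in limma-voom between withdrawal and ethanol.

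Some OAS proteins, but not all, make the second messenger that activates RNase L, and the Mx proteins are antiviral GTPases. Of the 6 genes of this group, Oas1b and Oasl rose between ethanol and withdrawal. Oas1b (chr12:41255762-41266430) was at 0.511 to 1.90 CPM (median 1.43) in control, 0.432 to 1.36 CPM (median 0.707) in ethanol and 1.44 to 4.72 CPM (median 2.11) in withdrawal. Withdrawal rats 4 and 5 had 4.72 and 4.07 CPM, the other 4 reached at most 2.34 CPM, and no withdrawal rat was as low as any ethanol rat. Its log2 fold change was 1.5 ± 0.36 (SE, limma-voom q = 0.0591) against ethanol and 0.75 ± 0.28 (SE, limma-voom q = 0.154) against control. Oasl (chr12:47444138-47456680) was at 0.247 to 0.854 CPM (median 0.5), 0.0810 to 0.563 CPM (median 0.205) and 0.508 to 1.91 CPM (median 0.958) in the same order. The withdrawal range overlapped both others, and rat 5 was highest. Its log2 fold change was 1.94 ± 0.42 (SE, limma-voom q = 0.0481) against ethanol and -1.22 ± 0.43 (SE, limma-voom q = 0.248) for ethanol against control.

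Mx2, the most abundant of the group per length, was at 4.83 to 19.9 CPM (median 11.9) in control, 8.40 to 18.9 CPM (median 15.0) in ethanol and 11.2 to 33 CPM (median 17.8) in withdrawal rats. Its groups overlapped, with withdrawal rats 4 and 5 at 29.7 and 33 CPM. Its estimates were 0.60 ± 0.29 (SE, limma-voom q = 0.263) against control and 0.33 ± 0.32 (SE, limma-voom q = 0.635) against ethanol. Oas1a had an estimate of 1.34 ± 0.43 (SE, limma-voom q = 0.129) between withdrawal and ethanol, and Mx1 of 0.34 ± 0.37 (SE, limma-voom q = 0.689). Read pairs that map to several places were not counted, so levels of close relatives such as Oas1a and Oas1b, Mx1 and Mx2, or Ifitm2 and Ifitm3, may be too low by an unequal share. No member shared exon bases with another gene on its strand.

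The IFIT proteins bind viral RNA or block its translation. Ifit2 rose in withdrawal compared with both other groups and had the lowest q of the list against control. Ifit2 (chr1:252894663-252900727) was at 7.94 to 9.50 CPM (median 8.91) in control, 7.02 to 15.4 CPM (median 9.72) in ethanol and 9.82 to 18.1 CPM (median 11.9) in withdrawal rats. All withdrawal rats lay above all control rats, and withdrawal rats 4 and 5 and ethanol rat 1 were the highest of the 18. The log2 fold change was 0.49 ± 0.11 (SE, limma-voom q = 0.0387) against control and 0.51 ± 0.13 (SE, limma-voom q = 0.0689) against ethanol. Against control the call was lost in 1 of the 18 fits that left out a single rat, and q was 0.248 without surrogate variables.

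Ifit3 (chr1:252906234-252911377) was at 1.57 to 3.22 CPM (median 1.96) in control, 0.494 to 2.95 CPM (median 1.45) in ethanol and 2.71 to 8.85 CPM (median 4.01) in withdrawal. Rats 4 and 5 of the withdrawal group, with 8.85 and 7.86 CPM, stood above the rest, and ethanol rats 2, 3 and 4 were under every control rat. In limma-voom, Ifit3 had a log2 fold change of 1.55 ± 0.39 (SE, limma-voom q = 0.0652) against ethanol and 0.94 ± 0.30 (SE, limma-voom q = 0.108) against control. Cmpk2, a mitochondrial nucleotide kinase and the most abundant of these effectors per length, had 24.4 to 28.3 CPM (median 26.2) in control, 24.1 to 35.4 CPM (median 29.1) in ethanol and 23.6 to 34.7 CPM (median 24.2) in withdrawal rats. Withdrawal rat 5 stood alone at 34.7 CPM above 5 rats at 23.6 to 25.3 CPM, and the estimate against ethanol was -0.14 ± 0.05 (SE, limma-voom q = 0.201). The exonuclease Isg20, the radical enzyme Rsad2 (viperin) and the apoptosis-linked Xaf1 did not pass in any comparison, with limma-voom estimates between withdrawal and ethanol of 0.03 (q = 0.970), 0.59 (q = 0.34) and 0.38 (q = 0.327).

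Isg15, a ubiquitin-like protein that is attached to other proteins, and Usp18, the protease that removes it and dampens receptor signaling, passed no test. Isg15 was at 0.703 to 2.55 CPM (median 1.71) in control, 0.783 to 2.32 CPM (median 1.27) in ethanol and 1.53 to 5.76 CPM (median 2.85) in withdrawal rats. Usp18 was at 1.41 to 3.67 CPM (median 2.92), 0.891 to 4.19 CPM (median 1.79) and 3.02 to 8.15 CPM (median 3.40). In both genes withdrawal rats 4 and 5 were about level with each other and above all other rats. The estimates between withdrawal and ethanol were 1.01 ± 0.35 (SE, limma-voom q = 0.154) for Isg15 and 1.14 ± 0.34 (SE, limma-voom q = 0.112) for Usp18.

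All 3 transcription factors of the list passed a test in at least 1 comparison. Irf7, the factor that amplifies interferon alpha production, and Irf9, a DNA-binding part of the complex at the ISRE, rose between ethanol and withdrawal. Irf7 (chr1:214249388-214252909) was at 2.49 to 7.24 CPM (median 5.75) in control, 1.46 to 5.60 CPM (median 2.72) in ethanol and 4.59 to 17.1 CPM (median 6.30) in withdrawal. In withdrawal, rats 4 and 5 had 16.3 and 17.1 CPM and the other 4 withdrawal rats 4.59 to 6.34 CPM, within the control range. The log2 fold change was 1.32 ± 0.36 (SE, limma-voom q = 0.0879) against ethanol, and the call was lost in 7 of the 18 fits that left out a single rat.

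Irf9 (chr15:34282936-34288981) was at 25.9 to 37.8 CPM (median 31.5) in control, 20.1 to 39.3 CPM (median 20.9) in ethanol and 28.6 to 53.0 CPM (median 35.5) in withdrawal rats. Ethanol rats 1 to 4 had 20.1 to 21.3 CPM, under every rat of the other groups, while ethanol rats 5 and 6 had 39.3 and 27.1 CPM. Against ethanol its log2 fold change was 0.53 ± 0.09 (SE, limma-voom q = 0.0312), the lowest q of the list, and -0.28 ± 0.09 (SE, limma-voom q = 0.219) for ethanol against control. Irf1 (chr10:39109530-39116532), a factor that interferon gamma induces, was at 6.95 to 8.83 CPM (median 8.14) in control, 7.83 to 9.33 CPM (median 8.32) in ethanol and 8.13 to 13.2 CPM (median 9.53) in withdrawal rats. Withdrawal rat 1 was highest at 13.2 CPM and the groups overlapped. It rose against control, with a log2 fold change of 0.31 ± 0.09 (SE, limma-voom q = 0.0877), a call lost in 10 of the 18 fits that left out a single rat.

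Parp9, Parp14 and Dtx3l, ADP-ribosyltransferases and the ubiquitin ligase that partners Parp9, all rose between ethanol and withdrawal. Parp14 (chr11:68105442-68137509) was at 4.86 to 7.65 CPM (median 6.55) in control, 4.42 to 8.24 CPM (median 6.39) in ethanol and 7.54 to 11.0 CPM (median 9.18) in withdrawal. The withdrawal range began below the highest control and ethanol rats, and 4 of its 6 rats were above all of them. Its log2 fold change was 0.46 ± 0.12 (SE, limma-voom q = 0.0644) against control and 0.58 ± 0.14 (SE, limma-voom q = 0.0633) against ethanol. Parp9 (chr11:67724071-67758027) was at 8.37 to 10.9 CPM (median 10.3), 7.02 to 11.7 CPM (median 9.13) and 9.87 to 14.3 CPM (median 12.3) in the same order. Withdrawal rats 4, 5 and 6 had 13.6 to 14.3 CPM, above all other rats, and the groups overlapped. Its log2 fold change was 0.48 ± 0.12 (SE, limma-voom q = 0.0633) against ethanol. Dtx3l (chr11:67758093-67772428) was at 2.04 to 3.18 CPM (median 2.83), 1.73 to 3.57 CPM (median 2.11) and 2.94 to 4.09 CPM (median 3.63). The withdrawal range overlapped control rats 1 and 2 and ethanol rats 1 and 6. Its log2 fold change was 0.73 ± 0.19 (SE, limma-voom q = 0.0724) against ethanol and 0.41 ± 0.16 (SE, limma-voom q = 0.168) against control.

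In antigen processing, B2m rose between ethanol and withdrawal and the immunoproteasome did not pass. B2m (chr3:114087287-114093311) was at 271 to 286 CPM (median 280.3) in control, 240 to 300.1 CPM (median 281) in ethanol and 285 to 326 CPM (median 307) in withdrawal rats. The 4 withdrawal rats of index set 3 were above all other rats, and rats 1 and 2 lay within the range of the ethanol group. The log2 fold change was small, 0.19 ± 0.05 (SE, limma-voom q = 0.0725) against ethanol and 0.13 ± 0.04 (SE, limma-voom q = 0.113) against control. The inducible catalytic subunits Psmb8, Psmb9 and Psmb10 had estimates between withdrawal and control of -0.05 (q = 0.920), 0.03 (q = 0.941) and 0.04 (q = 0.730) in limma-voom. Between withdrawal and ethanol their limma-voom estimates were 0.32 (q = 0.529), 0.21 (q = 0.524) and 0.09 (q = 0.527). The constitutive subunits Psmb5, Psmb6 and Psmb7, which the inducible ones replace, were also measured, and Psmb5 rose against control with 0.14 ± 0.04 (SE, limma-voom q = 0.0833). The peptide transporter gene Tap1 had 0.30 ± 0.12 (SE, limma-voom q = 0.194) against ethanol, and its partner Tap2 had 15 counts in all and was not tested.

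The guanylate-binding proteins Gbp2 and Gbp5, GTPases that act on intracellular pathogens, passed no test. Gbp2 was at 4.41 to 6.84 CPM (median 6.11) in control, 4.36 to 7.23 CPM (median 5.33) in ethanol and 5.33 to 15.0 CPM (median 8.39) in withdrawal rats. Withdrawal rats 1 and 5, with 15.0 and 14.1 CPM, were above the rest, and withdrawal rats 2 and 6 lay within the control range. The estimates were 0.49 ± 0.17 (SE, limma-voom q = 0.127) against control and 0.59 ± 0.19 (SE, limma-voom q = 0.141) against ethanol for Gbp2, and 0.43 ± 0.15 (SE, limma-voom q = 0.130) and 0.50 ± 0.17 (SE, limma-voom q = 0.155) for Gbp5.

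Of the membrane proteins, Ifitm3, which blocks virus entry, rose in withdrawal against both groups, and Bst2 (tetherin), which holds budding virus at the cell surface, rose against ethanol. Ifitm3 (chr1:213810712-213811821) was at 5.08 to 5.96 CPM (median 5.55) in control, 3.68 to 6.94 CPM (median 5.39) in ethanol and 5.98 to 12.4 CPM (median 9.46) in withdrawal rats. Withdrawal rat 1 was highest, rats 2 and 3 were within the ethanol range, and all 6 were above every control rat by a margin as narrow as 5.98 against 5.96 CPM. The log2 fold change was 0.63 ± 0.17 (SE, limma-voom q = 0.0591) against control and 0.79 ± 0.19 (SE, limma-voom q = 0.0633) against ethanol, and the first call was lost in 5 of the 18 fits that left out a single rat. Bst2 (chr16:19938781-19942353) was at 5.79 to 7.37 CPM (median 6.55) in control, 3.43 to 8.54 CPM (median 5.35) in ethanol and 6.53 to 11.1 CPM (median 8.03) in withdrawal rats. Ethanol rats 1 and 6 lay above every control rat and ethanol rats 2, 3 and 5 below every control rat. Its log2 fold change was 0.73 ± 0.17 (SE, limma-voom q = 0.0575) against ethanol and 0.31 ± 0.14 (SE, limma-voom q = 0.240) against control. Ifitm2 was at 4.74 to 6.92 CPM (median 6.40), 5.66 to 8.30 CPM (median 6.37) and 4.72 to 9.78 CPM (median 7.58), with overlap of all groups, and had 0.34 ± 0.12 (SE, limma-voom q = 0.123) against control.

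**Figure D4:**
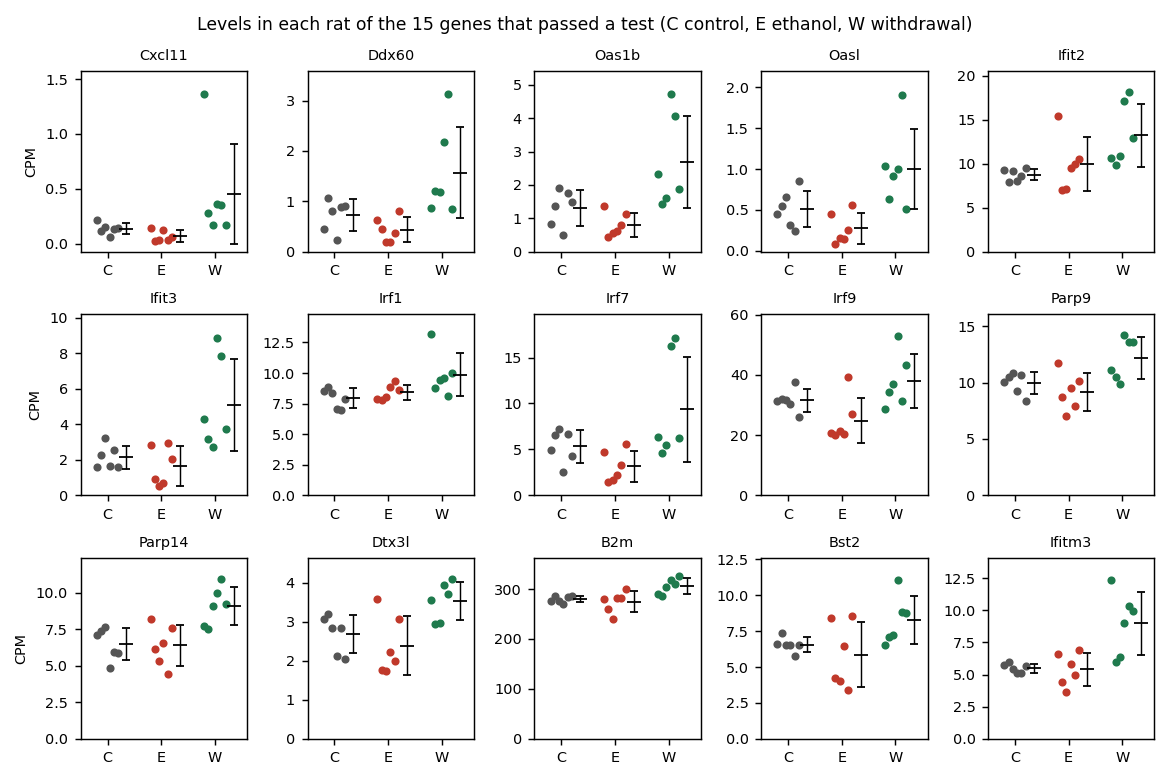
CPM (y axes, from 0 or just under it) of the 15 interferon-induced genes that passed a test in at least 1 comparison, in each of the 6 control (C), 6 ethanol (E) and 6 withdrawal (W) rats, with mean ± SD beside the points. For Irf7 the withdrawal rats fall apart, 2 at 16.3 and 17.1 CPM and the other 4 at 4.59 to 6.34 CPM, while for Ifit2 all withdrawal rats lie above all control rats.

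The genes grouped as others were Rtp4, a receptor transporter, the antibody receptor Trim21 and the secreted glycoprotein Lgals3bp. Lgals3bp, the most abundant of them per length, was at 20.1 to 28.0 CPM (median 24.7) in control, 19.5 to 45.5 CPM (median 26.3) in ethanol and 16.8 to 45.8 CPM (median 22.6) in withdrawal rats. Its 3 highest rats, withdrawal rat 6 and ethanol rats 1 and 6 (45.8, 45.5 and 40.5 CPM), were also the 3 with the highest choroid plexus sums (5341, 5322 and 4943 CPM). The part of that tissue in the result was not tested. The estimate of Lgals3bp, adjusted for surrogate variables, was 0.21 ± 0.11 (SE, limma-voom q = 0.279) against control. Against ethanol it was 0.27 ± 0.12 (SE, limma-voom q = 0.268), although the mean was 25.95 CPM in withdrawal and 30.08 CPM in ethanol rats. Rtp4 and Trim21 had 0.74 ± 0.26 (SE, limma-voom q = 0.164) and 0.31 ± 0.11 (SE, limma-voom q = 0.171) against ethanol.

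Few genes of the pathway upstream passed the test. Of 9 interferon ligand genes, 8 were found, and their counts summed to at most 0.248 CPM in any rat, so that none was tested. The 6 receptor genes were tested and none passed in any comparison, for example Ifnar1 with -0.06 ± 0.04 (SE, limma-voom q = 0.528) between withdrawal and ethanol. Of 14 further sensors and adaptors tested, Ddx58 (RIG-I) rose against ethanol, with 0.43 ± 0.12 (SE, limma-voom q = 0.0906). It was at 5.72 to 8.90 CPM (median 6.85) in ethanol and 6.47 to 11.6 CPM (median 8.81) in withdrawal rats, which overlapped.

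A further 33 interferon-induced genes that are not on the list were tested, of 34 found. Between withdrawal and ethanol 7 of them rose, which were Igtp, Irgm, Herc6, Ifi44l, Uba7, Nlrc5 and Psme2, and none fell, while 1.24% of all genes rose and 1.51% fell. These calls too were absent without ethanol rat 2, ethanol rat 3 or withdrawal rat 6 and with those 2 groups alone, where 0 of all genes passed. Between withdrawal and control 1 of the 33 rose (Igtp), a share near the 3.14% of all genes that rose, and between ethanol and control limma-voom called 0. The median log2 fold change over the 33 was 0.31 for withdrawal against ethanol, 0.096 for withdrawal against control and -0.17 for ethanol against control, against 6.29e-05, 0.0038 and 0.0036 over all genes. Igtp, an immunity-related GTPase that interferon gamma induces, was at 3.39 to 5.27 CPM (median 4.57) in control, 3.31 to 5.55 CPM (median 4.52) in ethanol and 5.13 to 7.83 CPM (median 6.61) in withdrawal rats. The lowest withdrawal rat lay just under the highest control rat, and the log2 fold change was 0.51 ± 0.13 (SE, limma-voom q = 0.0438) against control and 0.62 ± 0.14 (SE, limma-voom q = 0.0555) against ethanol. Herc6, a ligase related to the one that attaches Isg15 in human cells, had 0.63 ± 0.13 (SE, limma-voom q = 0.0464) against ethanol.

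Both kinds of promoter letters occurred in genes that rose and in genes that did not pass. Among the 13 genes that rose between ethanol and withdrawal and had a promoter, 8 held the ISRE letters and 6 the GAS letters. Among the 19 tested genes with a promoter that did not pass, 14 held the ISRE letters and 3 the GAS letters. Psmb10, with its pair of ISRE matches printed above, had an estimate of 0.09 ± 0.07 (SE, limma-voom q = 0.527), and Ddx60, with a similar pair, of 1.68 ± 0.42 (SE, limma-voom q = 0.0653).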

How the data were processed

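The authors aligned reads from 18 rats with STAR 2.5.2a to Rnor_6.0 (NCBI annotation 106) and deposited raw counts of read pairs per gene, made with featureCounts 1.5.0 by strand on exons, without pairs that mapped to several places or several genes. Gene identifiers were named from a RefSeq table (29322 of 38445 named). Groups and replicate numbers come from the sample labels, and index sets from the library names. The genes of the list, their roles, the marker and pathway lists and the rule for genes given with values (a call or separated groups in any comparison, or the highest level per length in its role) were chosen with earlier results of these data known. Counts were scaled by TMM (edgeR 4.0.16), and genes above 0.5 CPM in at least 1 rat were kept. All 3 groups entered a model with 3 surrogate variables (sva 3.50.0, unnamed sources of variation estimated from log2 CPM with a prior count of 2) in limma-voom (limma 3.58.1, R 4.3.3), with two-sided tests, Benjamini-Hochberg q over all genes tested within each comparison and a threshold of q < 0.1. No 2 libraries of a group matched within sampling noise (chi-square per degree of freedom at least 5.67 in 45 pairs). Depth limits the genes under about 1 CPM most. Alternatives were edgeR's quasi-likelihood test, DESeq2 1.42.0, other filters, scalings and numbers of surrogate variables, and leaving out rats. Results on the kinases and factors that act directly under the receptors are not reported here.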

Additional observations from a re-analysis of the deposited data

Results flagged for a closer look

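For the 22 genes given with values by rat and the mean over the list, 69 groups of 6 rats were checked for a rat whose gap to its nearest neighbour exceeded Dixon's 95% critical share of the group's range, which chance exceeds in about 1 of 20 groups, and 2 were found. Cxcl11 in withdrawal rat 1 was at 1.36 CPM, above the other 5 withdrawal rats at 0.17 to 0.363 CPM, with a gap of 0.663 of the range. Cmpk2 in withdrawal rat 5 was at 34.7 CPM, above the other 5 at 23.6 to 25.3 CPM, with a gap of 0.822 of the range.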

How the results depend on the processing

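In the 15 alternatives for which a median over the list was computed for the comparisons with control, it kept its sign in every one (0.17 to 0.42 for withdrawal against control, -0.27 to -0.07 for ethanol against control). Of 604 values of single called genes under an alternative, 422 kept their call, 182 lost it and 0 changed sign, and the causes were not tested. DESeq2 gave Cxcl11 no adjusted p, and it is left out there. Calls over all genes moved as well and are given in brackets. For withdrawal against control, 4 genes passed as reported (983), 0 without surrogate variables (40), 2 with 2 (575) and 11 with 4 of them (1375), 9 in DESeq2 (1607), 1 without a filter on low counts (486), 7 with those 2 groups alone (1167), 1 at q < 0.05 (370), 0 in edgeR's quasi-likelihood test without surrogate variables (39) but 6 in DESeq2 without them (452), 0 without withdrawal rats 4 and 5 (7), and 0 to 16 when single rats were left out. For ethanol against control, 0 passed as reported (116), 1 in DESeq2 (468), 1 with sample quality weights (451), 1 without withdrawal rats 4 and 5 (201), and 0 to 1 when single rats were left out. For withdrawal against ethanol, 14 passed as reported (491), 4 with 2 surrogate variables (254), 3 without a filter (166), 0 with those 2 groups alone (0), 0 with the withdrawal rats of the ethanol index set (0), 3 without withdrawal rats 4 and 5 (221), 2 at q < 0.05 (109), and 0 to 22 when single rats were left out. With the replicate number as a block, 0 passed between withdrawal and ethanol, where 1 of all genes did, and 4 between withdrawal and control, of which 2 were among the 4 reported, as Irf1 (q = 0.116) and Parp14 (q = 0.113) lost their calls. The numbers mark different rats, and same-numbered rats did not deviate together (correlation -0.325 to 0.383 over 18 pairs, median -0.0732, against 0.0355 for other pairs). Differences in the mean over the list moved by less than 1 SD in every alternative. Fits without withdrawal rats 4 and 5, both tests without surrogate variables other than limma-voom's and the recomputed scaling were chosen after seeing the data.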

Other observations

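The genes of the list that were not tested had few counts. Cxcl9 was at 0.0275 to 0.115 CPM in control, 0 to 0.089 CPM in ethanol and 0.0279 to 0.292 CPM in withdrawal rats, highest in withdrawal rat 1.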
